A study of Mus musculus with 4 samples.

Results

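The genes described here are 10 genes of the MHC class I antigen presentation pathway, chosen by symbol from the 28250 genes with a deposited value. They are the class I heavy chains H2-K1 and H2-D1, the light chain B2m, the peptide loading genes Tap1, Tap2 and Tapbp, the transactivator Nlrc5, and the immunoproteasome subunits Psmb8, Psmb9 and Psmb10. All 10 were listed once by symbol, and all 10 passed the filter on low values, which asked for 0.001 or more in 2 or more of the libraries. RNA-seq was run on TBV2, a feeder-dependent mouse embryonic stem cell (ESC) line, cultured with LIF. The solvent group was 2 libraries of cells kept with solvent for 24 h, and the MS-275 group was 2 libraries of cells kept with 5 µM MS-275, an inhibitor of class I histone deacetylases, for 24 h. The vehicle of the RNA-seq controls could not be resolved from the sources, so it is called solvent. No source says whether the 2 libraries of a group came from separate cultures. The p-values therefore rest on the spread between these libraries, pooled in part over genes, and that spread may be technical.

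An MHC class I molecule is a heavy chain held together with B2m and a short peptide, and it shows fragments of the cell's own proteins to cytotoxic T cells. The peptides are cut by the proteasome, in which the immunoproteasome subunits can take the place of their constitutive counterparts, are pumped into the endoplasmic reticulum by the Tap1 and Tap2 transporter, and are loaded with the help of tapasin, the product of Tapbp. Nlrc5 acts with the RFX, CREB and NF-Y factors on the promoters of class I genes, and interferon gamma is the classical inducer of the pathway. Mouse ESC are known for little class I on their surface.

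The deposited value of a gene is a normalized expression signal without a stated formula, so it is compared between libraries and not between genes. Its scale differed between the replicate numbers. The extreme upper tail of the values was 7.67 and 6.94 times their upper quartile in replicate 1 (solvent and MS-275). In replicate 2 it was 77.4 and 94.7 times. How much this adds to differences between replicates or between replicate pairs, above all for high genes, was not tested. Changes are differences of log2(value + 0.005), MS-275 minus solvent, which understate the change of low genes. Libraries with the same replicate number shared a deviation from their group means (correlation 0.764 over 20336 genes), and the headers of the files call the values of replicate 1 of both groups old. Each change is therefore also tested with the replicate number as a block, and a gene is called where limma's Benjamini-Hochberg adjusted p is under 0.05. With so few libraries, limma's SE and p lean more on a spread pooled over all genes tested than on that of the gene. Tap2 changed by 1.43 and 1.37 in the 2 replicate pairs and H2-K1 by 1.28 and 2.68. Their SE with the block was nonetheless 0.31 and 0.28. A small adjusted p is thus no measure of how well the 2 pairs of a gene match. The 10 pluripotency markers examined, among them Pou5f1, Nanog and Sox2, had a value of at least 0.01 in every library. Their summed value was 6.08 and 23.2 with solvent (replicates 1 and 2) and 4.83 and 13.6 with MS-275. The sum was lower with MS-275 in both replicate pairs, while replicate 2 was above replicate 1 in both groups, so that the groups overlapped. With the block 4 of the 10 were called lower and 0 higher, against 6.46% and 21.0% of the genes tested, with a median change of -0.65. Without it 0 were called and 2 were lower at an unadjusted p under 0.05, against 2.77% of the genes tested.

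The promoters of the heavy chains, of B2m and of the Tap1 and Psmb9 pair are shown because the factors named above act on such sequences. RefSeq windows (GRCm38.p6) were matched for 8 of the 10 genes, all but Nlrc5 and Tap2, and the first listed of the 2 H2-K1 windows was used. The 250 bases before the start of transcription were searched on both strands for an NF-kappaB site (GGGA and CCC with 3 bases of any kind between), the core of an interferon-stimulated response element (GAAA and GAAA with 2 bases between), the CCAAT box, the GC box (GGGCGG) and the core of a CRE (TGACG). Capitals mark the matches, a match on the other strand included. In H2-K1 and H2-D1 the capitals GGGGATTCCCC hold 2 overlapping NF-kappaB matches.
H2-K1, chr17:34000348-34000597, minus strand: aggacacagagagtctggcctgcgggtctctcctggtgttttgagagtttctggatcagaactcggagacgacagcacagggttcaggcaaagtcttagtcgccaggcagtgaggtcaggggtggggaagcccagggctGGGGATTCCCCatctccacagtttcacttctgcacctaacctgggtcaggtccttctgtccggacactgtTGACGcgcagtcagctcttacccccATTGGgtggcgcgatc
H2-D1, chr17:35262844-35263093, plus strand: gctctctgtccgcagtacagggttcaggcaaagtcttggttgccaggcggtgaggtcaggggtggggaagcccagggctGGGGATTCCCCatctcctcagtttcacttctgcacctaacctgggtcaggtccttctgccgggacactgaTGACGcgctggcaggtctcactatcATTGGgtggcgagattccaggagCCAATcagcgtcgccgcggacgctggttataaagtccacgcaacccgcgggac
Tap1 and Psmb9, shared interval between both starts, chr17:34187331-34187555, read towards Tap1: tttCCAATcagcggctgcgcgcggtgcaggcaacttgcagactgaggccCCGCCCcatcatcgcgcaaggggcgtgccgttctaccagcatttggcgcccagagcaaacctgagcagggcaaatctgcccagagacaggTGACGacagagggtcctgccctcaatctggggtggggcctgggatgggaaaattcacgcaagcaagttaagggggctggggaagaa
B2m, chr2:122147543-122147572, plus strand: aacatGAAACTGAAAatgggaaagtccctt
B2m, chr2:122147609-122147638, plus strand: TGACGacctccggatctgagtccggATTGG

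The windows of the heavy chain genes are near copies of each other, with 91.0% identity over 177 aligned columns and a shared run of 47 bases. Both hold the NF-kappaB site, at bases 111 to 101 before the start in H2-K1 and 171 to 161 in H2-D1, which 4.77% of 32851 promoters also hold. Tap1 and Psmb9 are read in opposite directions from the same 225 bases. That interval holds a CCAAT box, a GC box and a CRE core, each of which therefore stands before both genes. Of the 8 windows, only that of B2m matched the response element core as searched (GAAACTGAAA, at bases 139 to 130 before the start). Over all promoters, 2.98% held such a match. Looser forms of the element were not searched, so a window without a match may still hold one. The CCAAT box was found in 6 of 8 windows against 33.8% of all promoters, the CRE core in 5 of 8 against 17.8%, and the GC box in 3 of 8 against 32.7%. These counts take the shared interval for both Tap1 and Psmb9 and the near copies of H2-K1 and H2-D1 separately. The 8 windows are thus not independent, and the shares are no measure of enrichment. The window of Tapbp held a CCAAT box and a GC box, and those of Psmb8 and Psmb10 held none of the 5 motifs. These are matches of letters, and binding was not measured.

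Of the 10 genes, 7 had both MS-275 values above both solvent values, 2 had both below, and B2m overlapped. Over all 20336 genes tested, 32.3% had both MS-275 values higher and 12.0% both lower. At least a 2-fold rise in both replicate pairs was seen for 7 of the 10, against 11.5% of all 28250 listed genes, and none was 2-fold lower in both, against 2.04%. These 2 shares take in genes under the filter on low values, which all 10 passed. With the block, 8 of the 10 were called higher (all but Tapbp and Psmb10), against 21.0% of the genes tested, and Psmb10 was called lower, against 6.46%. Without the block limma called 0 of the 10, as it called 1 gene higher among all genes (0.00492%) and 0.0% lower. At an unadjusted p under 0.05 without the block, 5 of the 10 were higher and 0 lower, against 14.6% and 2.77% of the genes tested. The median change of the 10 was 1.36 on the log2 scale, beside 0.20 for all genes tested, and by pair it was 1.24 and 1.27 beside 0.13 and 0.24.

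**Figure D1:**
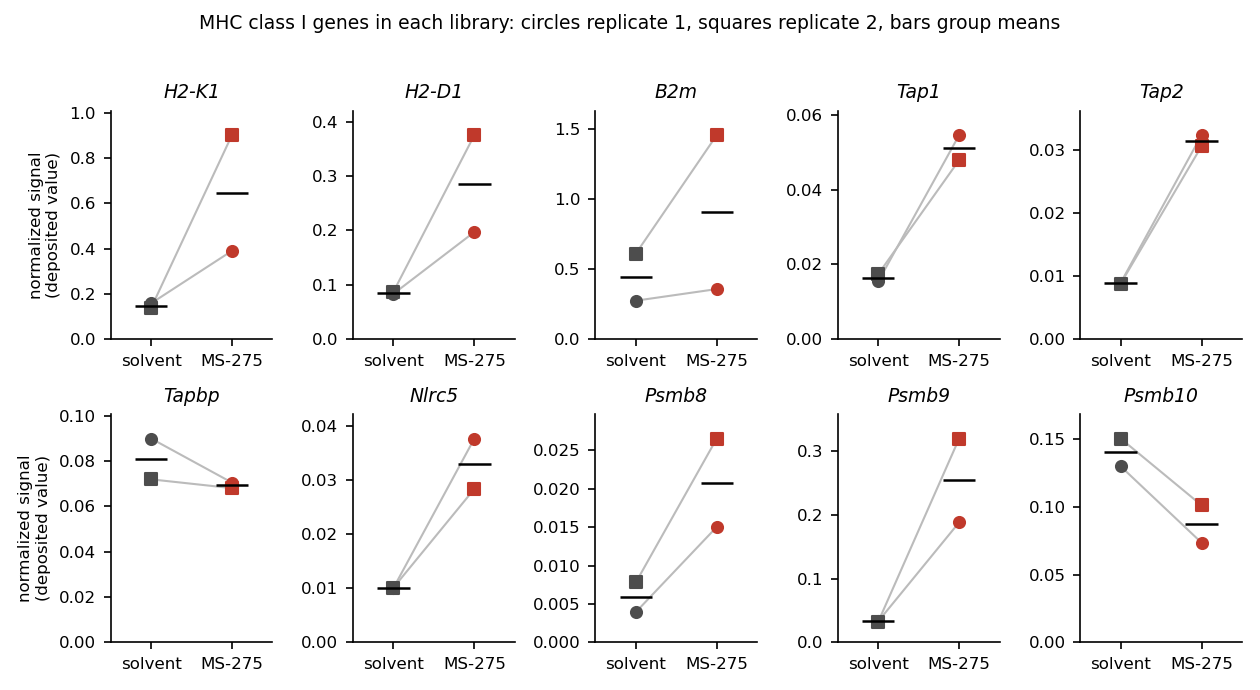
Deposited normalized signal (y axis, from 0, with a scale of its own for each gene) of the 10 genes in the 4 libraries. Circles are replicate 1, squares replicate 2, grey lines join libraries with the same number and bars are group means. In 7 panels both MS-275 points lie above both solvent points, in the panels of Tapbp and Psmb10 both lie below, and in the panel of B2m the groups overlap.

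H2-K1, the heavy chain of the K molecule (Entrez 14972; mm9 chromosome 17, 34132962 to 34137278, minus strand), had values of 0.158 and 0.137 with solvent and 0.390 and 0.902 with MS-275, in the order replicate 1, replicate 2. Both treated libraries stood above both controls, and the treated libraries differed more from each other than the controls did. The change was 1.28 in the replicate 1 pair and 2.68 in the replicate 2 pair, a mean of 1.98 ± 0.28 (SE with the block; limma, Benjamini-Hochberg adjusted p = 0.000121 with the block and 0.0786 without). H2-D1, the heavy chain of the D molecule (Entrez 14964; chromosome 17, 35399675 to 35404444, plus strand), had 0.0831 and 0.0870 with solvent and 0.197 and 0.375 with MS-275. The groups did not overlap, and as in H2-K1 the highest library was MS-275 replicate 2. The change of H2-D1 was 1.62 ± 0.24 (adjusted p = 0.000170 with the block and 0.0880 without, limma). Of the 35-base words in their exons, 28.9% in H2-K1 and 25.9% in H2-D1 occur elsewhere in mm9, so reads of near-identical class I genes could be exchanged between them, and both values are uncertain to that extent.

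B2m (Entrez 12010; chromosome 2, 121973422 to 121978819, plus strand), whose product is the light chain of every class I molecule, had values of 0.273 and 0.609 with solvent and 0.356 and 1.45 with MS-275. The groups overlapped, since solvent replicate 2 stood above MS-275 replicate 1, while each treated library was above the control of the same number. The change was 0.38 in the replicate 1 pair and 1.25 in the replicate 2 pair, a mean of 0.81 ± 0.28 (limma adjusted p = 0.0385 with the block and 0.682 without). With the block and median-ratio scaling together the adjusted p was 0.0909, and without MS-275 replicate 2 the change was -0.20. That last value sets MS-275 replicate 1 against both controls and so carries the offset between the replicates, while the replicate 1 pair alone gave 0.38. No 35-base word of its exons is repeated in mm9.

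Tap1 (Entrez 21354; chromosome 17, 34324498 to 34334170, plus strand), the first chain of the peptide transporter, had 0.0154 and 0.0174 with solvent and 0.0547 and 0.0480 with MS-275. Tap2 (Entrez 21355; chromosome 17, 34340472 to 34353266, plus strand), its partner chain, had 0.00891 and 0.0088 with solvent and 0.0324 and 0.0307 with MS-275. For both chains the libraries of a group were close together and the groups far apart. The changes were almost equal, at 1.39 ± 0.30 for Tap1 (limma adjusted p = 0.00264 with the block and 0.265 without) and 1.40 ± 0.31 for Tap2 (0.00321 and 0.265). Tapbp (Entrez 21356; chromosome 17, 34052844 to 34066235, plus strand) encodes tapasin, the bridge between the transporter and empty class I molecules, and had 0.0899 and 0.0719 with solvent and 0.0705 and 0.0680 with MS-275. Both treated values lay below both controls, but by less than the controls differed from each other. The change of Tapbp, -0.20 ± 0.24, did not pass (limma adjusted p = 0.578 with the block and 0.907 without).

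Nlrc5 (Entrez 434341; chromosome 8, 96996663 to 97051172, plus strand), the class I transactivator, had 0.0101 in both solvent libraries and 0.0378 and 0.0284 with MS-275. The groups were well apart. The change was 1.503 in the replicate 1 pair and 1.14 in the replicate 2 pair, with a mean of 1.32 ± 0.31 (limma adjusted p = 0.00504 with the block and 0.304 without). With quantile normalization and the block the change was 0.82 and its adjusted p 0.0669, and the gene was then not called. Ciita, the related transactivator of class II genes, was listed between 0.00024 and 0.00058 in the 4 libraries, under the filter, and its exons held between 1 and 5 distinct alignment positions per library.

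Psmb9 (Entrez 16912; chromosome 17, 34318932 to 34324709, minus strand), an immunoproteasome subunit, showed the largest change of the 10. Its values were 0.0331 and 0.0325 with solvent and 0.188 and 0.320 with MS-275, with no overlap. The change was 2.34 in the replicate 1 pair and 3.12 in the replicate 2 pair, a mean of 2.73 ± 0.25 (limma adjusted p = 3.30e-06 with the block and 0.0581 without). Psmb8 (Entrez 16913; chromosome 17, 34334666 to 34338399, plus strand), the subunit that replaces Psmb5, had 0.00395 and 0.00781 with solvent and 0.0150 and 0.0265 with MS-275. The lower treated library stood above the higher control. The change of Psmb8 was 1.23 ± 0.30 (limma adjusted p = 0.00620 with the block and 0.294 without), and with quantile normalization and the block the adjusted p was 0.106.

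Psmb10 (Entrez 19171; chromosome 8, 108459628 to 108462292, minus strand), the subunit that replaces Psmb7, went the other way. Its values were 0.130 and 0.150 with solvent and 0.0735 and 0.101 with MS-275, and both treated libraries lay below both controls. The change was -0.78 and -0.55 in the pairs, a mean of -0.66 ± 0.23 (limma adjusted p = 0.0393 with the block and 0.465 without). On distinct alignment positions with the block the change was -0.60 and the adjusted p 0.0700. Psmb8 and Psmb9 lie in the MHC beside the Tap genes, whereas Psmb10 lies on chromosome 8, as does Nlrc5.

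**Figure D2:**
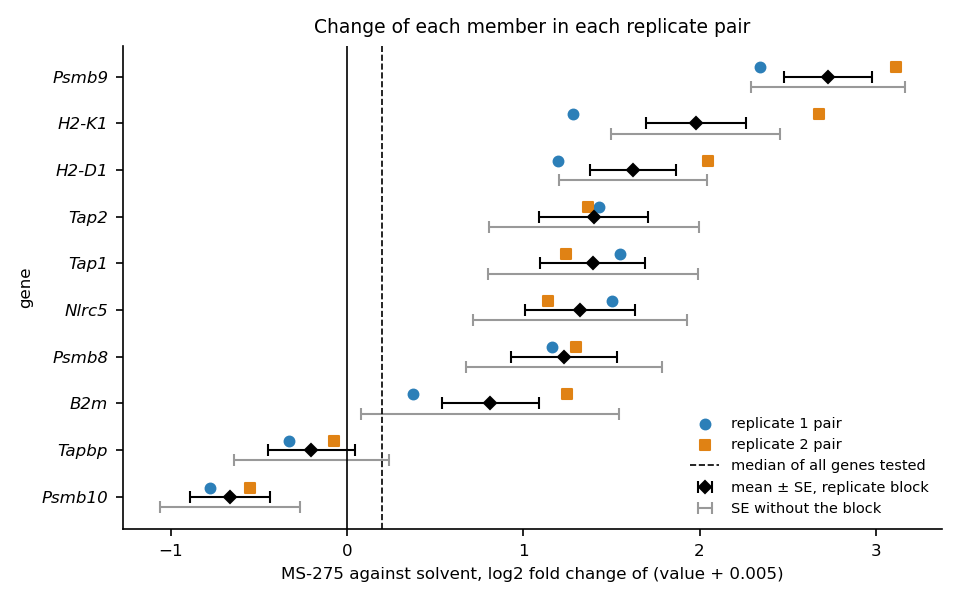
Change of each gene (y axis) from solvent to MS-275 as a difference of log2(value + 0.005) (x axis). Circles are the replicate 1 pair and squares the replicate 2 pair, diamonds their mean with the SE of the fit with the replicate block, grey bars the SE without it, and the dashed line the median of all genes tested, 0.20. Psmb9 stands farthest right at 2.73, and Tapbp and Psmb10 lie left of 0.

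The exchange of proteasome subunits can be read within a library as the log2 ratio of an immunoproteasome subunit to the constitutive subunit whose place it takes. Psmb9 over Psmb6 was -3.76 and -5.51 with solvent and -1.52 and -2.77 with MS-275. Psmb8 over Psmb5 was -4.07 and -5.50 with solvent and -2.61 and -4.22 with MS-275, so both ratios were higher in the treated library of each pair, and for Psmb9 over Psmb6 the groups did not overlap. Psmb10 over Psmb7 was -2.06 and -3.45 with solvent and -2.78 and -3.91 with MS-275, lower in both pairs. The changes were 2.25 and 2.74 for Psmb9 over Psmb6, 1.46 and 1.27 for Psmb8 over Psmb5, and -0.72 and -0.46 for Psmb10 over Psmb7. The offset between replicates was larger than the change in the last ratio, and for Psmb8 over Psmb5 the higher control stood above the lower treated library. With 2 libraries a group, an exact two-sided test cannot give a p below 0.333, so no test is given. The constitutive subunits changed by -0.14 (Psmb5), 0.24 (Psmb6) and -0.08 (Psmb7), and none was called.

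**Figure D3:**
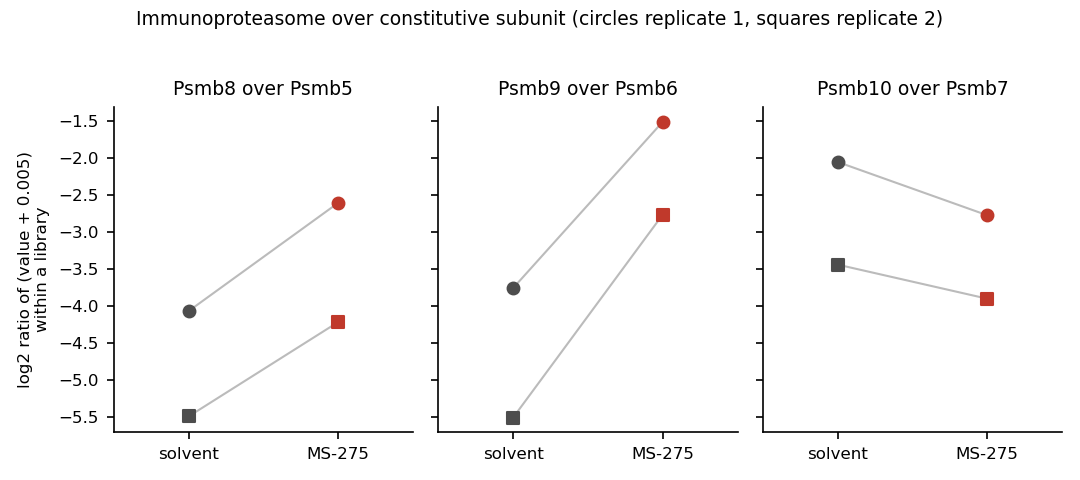
Log2 ratio of an immunoproteasome subunit to its constitutive counterpart within each library (y axis, a log scale) for the solvent and MS-275 groups. Circles are replicate 1, squares replicate 2, and lines join libraries with the same number. The lines rise for Psmb8 over Psmb5 and Psmb9 over Psmb6 and fall for Psmb10 over Psmb7, and replicate 2 lies under replicate 1 throughout.

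The deposited alignments gave a further measure of the same libraries and the read depth behind each gene. Alignments of 35 bases were assigned to exons of GENCODE M1 on mm9, and alignments at one position and strand were counted once, since 53.2% and 54.4% of the alignments deposited with replicate 1 of solvent and MS-275 were repeats and 0% of those with replicate 2. Such counts can understate the level and the change of a gene with many alignments per position. In replicate 1, B2m had 1168 and 2344 alignments (solvent and MS-275) at 328 and 441 positions. How much this lowered the levels and changes by positions was not tested. Names in the files place the alignments with the opposite replicate number from the values, in both groups. Over the 10 genes the spread of log2(value over alignment density) was 0.741 to 1.15 (SD) when matched by the labels and 0.499 to 0.672 when exchanged. The exchange would stay within each group and in both groups alike, so it alters neither the group means nor the block. With repeats kept, H2-K1 had 514 and 2804 alignments in replicate 1 (solvent and MS-275). In replicate 2, where no alignment was repeated, it had 248 and 708. The deposited values of H2-K1 changed by 1.28 in the replicate 1 pair and 2.68 in the replicate 2 pair. The part of repeats in that difference between pairs, and in the overlap of the groups of B2m, was not tested. Values per library below follow the labels.

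Compared per length, as distinct positions per kilobase of exon per 1000000 assigned, B2m stood highest with solvent at 55.1 and 39.2 (replicates 1 and 2). H2-K1 had 15.5 and 14.4, Tapbp 13.4 and 9.52, H2-D1 12.2 and 7.50 and Psmb10 12.2 and 8.96. The ranges of Tapbp, H2-D1 and Psmb10 overlapped, and H2-K1 lay above them. The other 5 lay from 0.166 to 2.48, with Tap1 at 2.48 and 1.41, Psmb9 at 1.66 and 1.45, Tap2 at 1.18 and 0.441, Nlrc5 at 1.11 and 0.831 and Psmb8 at 1.11 and 0.166. Tap1 and Psmb9 overlapped, as did Tap2, Nlrc5 and Psmb8 under them. The transporter, the transactivator and the immunoproteasome subunits of the MHC were thus the low genes of the 10 in solvent.

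With MS-275 the order changed. B2m was highest in each library at 91.3 and 50.7, H2-K1 followed at 53.5 and 36.9 with a range that overlapped that of B2m, and H2-D1 at 35.9 and 19.2 lay under H2-K1 and above the rest. Tapbp had 12.5 and 7.58, Psmb9 9.68 and 7.50 and Psmb10 9.25 and 4.92, so that Psmb9 overlapped with both genes it had been far below. Tap1 had 5.33 and 4.37, Psmb8 4.03 and 1.04, Tap2 3.86 and 2.09 and Nlrc5 3.07 and 2.999, with overlap among the last 3. The fewest distinct positions behind any of these levels were 3 for Psmb8 and 11 for Tap2, both in solvent replicate 2, so their changes rest on few reads. For the other 8 genes the lowest library held at least 35.

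On distinct positions limma-voom called 5 of the 10 higher without the block (H2-K1, H2-D1, Tap1, Nlrc5 and Psmb9) and 0 lower, against 15.2% and 5.11% of 16977 genes tested. With the block it called 8 higher and 0 lower, against 29.9% and 13.9%, and the 8 were those called higher on the deposited values. At an unadjusted p under 0.05 without the block, 6 were higher and 0 lower, against 24.8% and 10.4% of the genes tested. With the block 8 were higher and 1, Psmb10, was lower at that threshold, against 33.7% and 16.6%. The blocked changes were 2.45 ± 0.27 for Psmb9, 1.58 ± 0.16 for H2-K1 and 1.47 ± 0.18 for H2-D1. Psmb8 changed by 2.00 ± 0.44, Tap2 by 1.87 ± 0.35, Nlrc5 by 1.65 ± 0.26 and Tap1 by 1.34 ± 0.24, and B2m by 0.57 ± 0.17. The 3 lowest genes in solvent, Psmb8, Tap2 and Nlrc5, had larger changes by positions than by values, where the constant of 0.005 is near their level. The libraries do not keep strand (53.4% to 57.3% of positions were sense), and the exons of Tap1 and Psmb9 share 212 bases, so reads of that stretch went to neither gene.

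**Figure D4:**
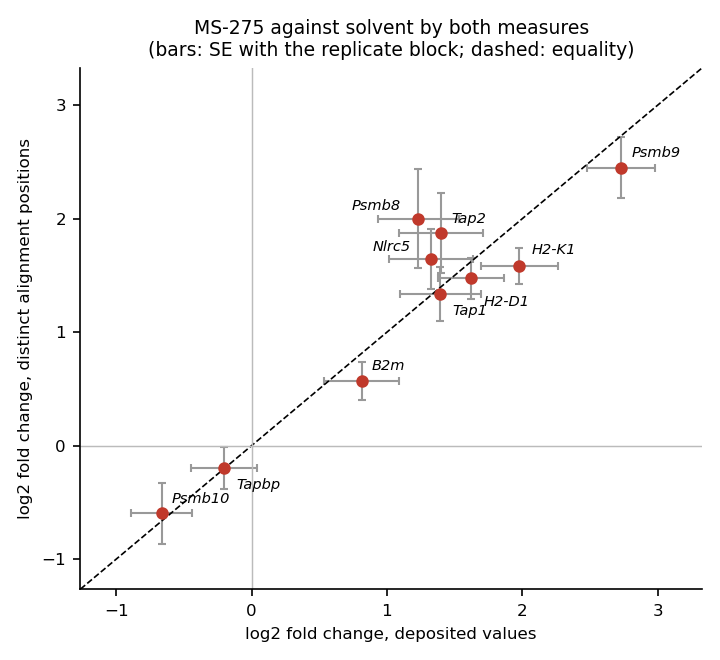
Change from solvent to MS-275 (log2) of the 10 genes by the deposited values (x axis) and by distinct alignment positions (y axis), each with the SE of the fit with the replicate block. The dashed line marks equal changes. Psmb8, Tap2 and Nlrc5 lie above the line, H2-K1 and Psmb9 under it, and Tapbp and Psmb10 are below 0 on both axes.

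Of the 10 genes, 6 lie in the MHC from H2-K1 to H2-D1, which stand at the ends of 1271483 bases of chromosome 17. Psmb9, Tap1, Psmb8 and Tap2 follow each other within 34335 bases. Of the 74 genes tested in the interval, 22 were called higher and 6 lower with the block, where 21.0% and 6.46% of all genes tested were. The 6 class I genes of the interval were all among the higher ones, and so were 7 of the 8 class II genes in it. The ends of the interval were set by H2-K1 and H2-D1, which are themselves among the 6. Tapbp, on the same chromosome at 34052844 to 34066235, lies outside the H2-K1 end and was not called. Of the other 60 genes, which belong to no list, 9 were called higher, a share under that of all genes, and 6 lower, with a median of 0.22 beside 0.20 for all genes tested. Among these 60 was the largest rise of the interval, Hspa1a at 4.12, and its largest falls, Ly6g6d at -2.07 and Ly6g6e at -2.01. Without the block limma called 0 of the 74, and 18 upward and 5 downward changes had an unadjusted p under 0.05. Over all genes tested 14.6% and 2.77% did. Of the 60 genes of no list, 6 were higher and 5 lower at that threshold.

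**Figure D5:**
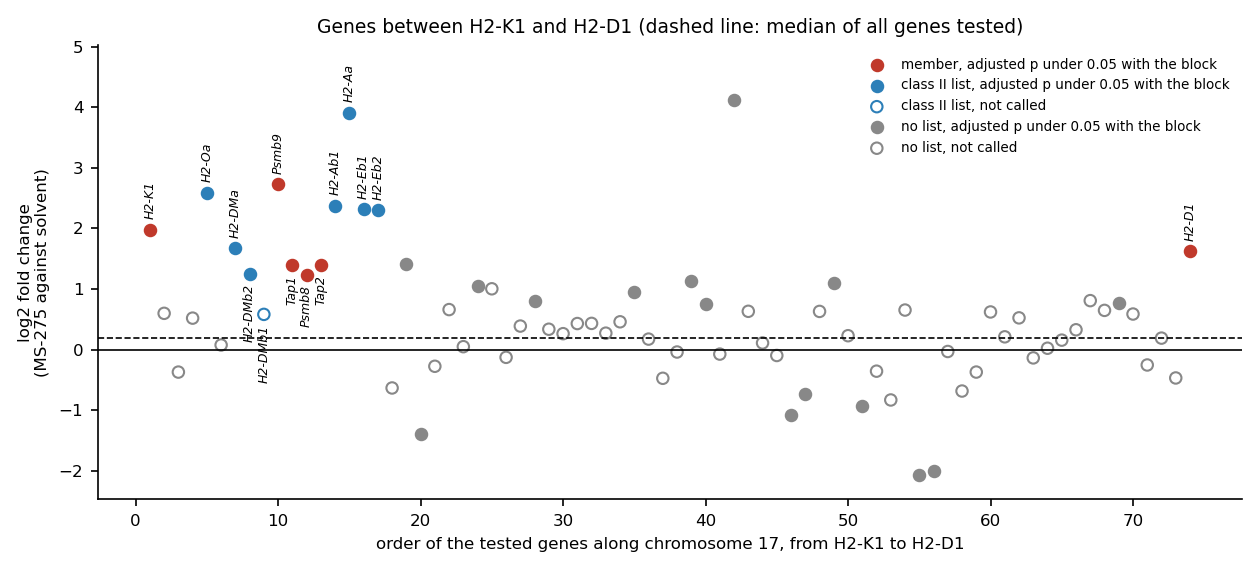
Change from solvent to MS-275 (log2 of value + 0.005, y axis) of the 74 tested genes from H2-K1 to H2-D1, in their order along chromosome 17 (x axis). Filled points had an adjusted p under 0.05 with the replicate block, and the dashed line is the median of all genes tested. The 6 red points of the class I pathway lie between 1.23 and 2.73, and most of the 60 grey points lie around the dashed line. The highest point of all, at 4.12, is a grey one (Hspa1a), as are the lowest, Ly6g6d at -2.07 and Ly6g6e at -2.01.

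The other genes of the pathway were read from lists, by symbol. With the block, 1 of 9 other peptide loading and trimming genes was called, against 21.0% of all genes called higher and 6.46% lower. It was Tapbpl, called higher, which encodes a tapasin-related protein. Its values were 0.00491 and 0.00580 with solvent and 0.0423 and 0.0400 with MS-275, and both treated libraries stood far above the controls. The change of Tapbpl was 2.16 ± 0.31 (limma adjusted p = 0.000116 with the block and 0.100 without). The chaperone Calr changed by 0.59, and Ganab (-0.63) and the aminopeptidase Npepps (-0.57) had the lowest changes, and limma called none of these 3 on the values, with or without the block. On distinct positions limma-voom with the block called 3 of the 9 higher, Calr and Tapbpl among them, and 2 lower, Ganab and Npepps. The shares over all genes were 29.9% and 13.9%. Without the block it called 1 higher and 1 lower, against 15.2% and 5.11%. The median of the list was 0.00.

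Of the 14 constitutive subunits of the 20S proteasome, 0 were called in either direction with limma, with or without the block, and 0 passed at an unadjusted p under 0.05. On distinct positions with the block 1 was called higher. Their median change was 0.19, beside 0.20 for all genes, and the extremes were Psmb1 at 0.62, Psmb2 at 0.52, Psma3 at -0.44 and Psmb5 at -0.14. Of 8 proteasome activators and assembly factors 0 were called with or without the block, and 1 was higher at an unadjusted p under 0.05 with it. There Psmg2 (0.68) and Pomp (0.49) had the highest changes and Psme4 (-0.01) the lowest, while Psme1 (0.17) and Psme2 (0.10), the interferon-inducible activator, moved by less than the median of all genes. On distinct positions with the block 1 of the 8 was called higher.

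Of 20 other class I and class Ib heavy chain genes tested, 7 were called higher and 2 lower with the block, against 21.0% and 6.46% of all genes. Without it limma called 0. There 6 upward and 1 downward changes had an unadjusted p under 0.05, against 14.6% and 2.77% of all genes. H2-Bl had 0.0448 and 0.0324 with solvent and 0.141 and 0.315 with MS-275, a change of 2.33 ± 0.30. H2-Q7, of the Qa-2 family, had 0.0179 and 0.0120 with solvent and 0.0731 and 0.110 with MS-275, a change of 2.26 ± 0.31. In both the groups did not overlap. H2-M5 went down from 0.224 and 0.164 to 0.0718 and 0.0331, a change of -1.86 ± 0.24, and Cd1d1, which presents lipids, from 0.0734 and 0.0333 to 0.0271 and 0.0136, a change of -1.17 ± 0.29. The median of the list was 0.32. Values of these heavy chains may share reads with H2-K1 and H2-D1. Of 3 ligands of the NKG2D receptor of natural killer cells, H60b was called lower with the block, at -1.42 ± 0.28, and H60c (0.30) and Raet1a (-0.07) were not called.

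Class II genes present peptides taken up from outside the cell. Of 10 tested, 8 were called higher with the block and none lower, against 21.0% and 6.46% of all genes, with a median of 2.31. Without the block limma called 0, and 8 were higher at an unadjusted p under 0.05, against 14.6% of all genes. Cd74, the invariant chain, had 0.0184 and 0.00734 with solvent and 0.214 and 0.215 with MS-275, and changed by 3.69 ± 0.28. H2-Aa was listed at 0.00160 and 0 with solvent and at 0.101 and 0.0662 with MS-275, and changed by 3.92 ± 0.31. With solvent its exons held 0 and 1 distinct positions, and with MS-275 105 and 130.

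Of the 15 factors that act on class I promoters, 3 were called higher and 1 lower with the block and 0 without it, with a median of 0.00. Those counts are near the background of 21.0% higher and 6.46% lower over all genes with the block, and so are no result about these factors. Without the block 1 was higher at an unadjusted p under 0.05, against 14.6% of all genes. Rel of the NF-kappaB family changed by 0.97, Rfxap of the RFX complex by 0.87 and Irf2 by 0.75, and Nfkb1 by -0.99. Creb1, at -0.50, was not called on the values but was called lower on distinct positions, and Irf1, at 0.36, was called on neither. Of 10 genes of interferon gamma signalling, 6 were called higher and none lower with the block and 0 without it, with a median of 0.81. Socs1, an inhibitor of the receptor's kinases, had 0.00754 and 0.0105 with solvent and 0.0743 and 0.143 with MS-275, a change of 2.96 ± 0.30. Irf8, a transcription factor, had 0.0210 and 0.0132 with solvent and 0.127 and 0.139 with MS-275, a change of 2.66 ± 0.28. Ptpn6, at -0.14, was the 1 gene with a negative change. Ifng itself was listed at 0 in 3 libraries and at 0.00041 in MS-275 replicate 2. Over all these lists of the pathway the block gave 25 genes higher and 4 lower of 89 tested, against 21.0% and 6.46% of all genes. The fit without it gave 0, where 18 upward and 2 downward changes had an unadjusted p under 0.05, against 14.6% and 2.77%. On distinct positions without the block limma-voom called 16 higher and 6 lower of 83 tested, against 15.2% and 5.11% of all genes.

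Markers of other cells were read beside these results. The 16 fibroblast markers, chosen because TBV2 is grown on feeders, had summed values of 0.508 and 0.604 with solvent and 0.912 and 1.05 with MS-275, higher in both treated libraries. With the block 8 of the 15 tested were called higher and 0 lower, against 21.0% and 6.46% of all genes. Without it limma called 0 and 4 were higher at an unadjusted p under 0.05, against 14.6% of all genes. With the block Col1a1 at 2.41 and Fbn1 at 1.37 changed most, while Dcn (-0.72) and Col3a1 (-0.52) had negative changes that were not called on the values. In bulk RNA, fewer or more cells of a type and less or more RNA per cell cannot be told apart, and the part of feeder RNA in the class I changes was not tested. The 10 leukocyte markers summed to 0.437 and 0.314 with solvent and 0.381 and 0.281 with MS-275. Their defining gene Ptprc was at 0 in both solvent libraries and at 0.00232 and 0.00111 with MS-275. With the block 2 of the 8 tested were called higher and 2 lower, against 21.0% and 6.46% of all genes. Without it limma called 0, and 3 were higher at an unadjusted p under 0.05, against 14.6% of all genes. The 8 endothelial markers summed to 0.108 and 0.0491 with solvent and 0.168 and 0.0630 with MS-275, higher in both pairs, with overlapping groups. With the block 3 of the 7 tested were called higher and 0 lower, against 21.0% and 6.46% of all genes. Kdr at 1.79 and Esam at 1.25 rose the most, and Tek, at -0.50, was not called. Without the block limma called 0, and 3 were higher at an unadjusted p under 0.05, against 14.6% of all genes. In 5 of the 7 both treated values were above both controls, against 32.3% of all genes tested.

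The genes whose pattern over the 4 libraries lay nearest to the median pattern of the 10 were, by Euclidean distance between centred log2(value + 0.005) values among genes with a mean of at least 0.01, Pim2 (0.150), Peli3 (0.159), Samd4 (0.171), Bad (0.172) and Tubb6 (0.172). Their changes were 1.26 to 1.41, which the choice by pattern fixed in direction. Of the 10 genes themselves, Psmb8 (0.338) and Tap2 (0.408) lay nearest to their median pattern, and Psmb10 (1.98) and Tapbp (1.59) farthest. With 4 libraries in 2 groups many genes share such a pattern, so the distance is a description.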

How the data were processed

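RNA-seq libraries of TBV2 ESC, 2 with solvent and 2 with MS-275, were assigned to groups by title, with the library titled as a duplicate as replicate 2. The values deposited by the authors are a normalized signal per gene made with Genomatix from reads mapped to mm9. The formula, the aligner and its settings are not given in the sources used here. Because the signal is not a count, log2(value + 0.005) was fitted with lmFit and eBayes (with a trend) of limma 3.58.1 in R 4.3.3 over the 20336 genes that reached 0.001 in 2 or more libraries, without and with the replicate number as a block, and adjusted by Benjamini-Hochberg over all of them. Libraries with the same number deviated together (correlation 0.764 over 20336 genes), and the file headers call replicate 1 of both groups old.

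As an alternative, limma-voom was run on the deposited alignments, counted at distinct positions on GENCODE M1 exons of mm9 (at least 10 in at least 2 libraries, 16977 genes). The libraries held 23467935, 9785619, 20008841 and 10915650 alignments (solvent 1 and 2, MS-275 1 and 2). Promoters came from RefSeq (GRCm38.p6) and coordinates of genes from GENCODE M1. The Python packages pandas 2.3.3, numpy 2.4.6, matplotlib 3.10.9 and pyarrow 21.0.0 (Python 3.11.15) were used for the other steps. As a check of the code, the fits on values were also run on simulated data with the same spread for all genes. No result here rests on that run.

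The 10 genes and the lists were chosen with earlier results of these data known. Of 165 list entries, 150 matched the listed symbols and 15 were not listed. Named are the 10 genes, the 2 genes of each pathway list at each end of its changes (fewer where fewer had that sign), counterparts of the immunoproteasome subunits, Ciita, and the 5 genes nearest in pattern. Psme1, Psme2, Irf1, Irf2, Ifng and the marker genes were named besides, after their values were seen. Some genes of the lists are not reported here. Alternatives were other pseudocounts, filters and scalings, the authors' shorter tables, eBayes without a trend, and each library left out. The authors' tables of ratios between libraries were not used.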

Additional observations from a re-analysis of the deposited data

How the results depend on the processing

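Libraries with the same replicate number deviated together, for a reason the sources do not give, and the block on that number decided the count of calls. Repeats were 53.2% and 54.4% of the alignments deposited with replicate 1 (solvent and MS-275) and 0% of those with replicate 2. The part of this difference in the shared deviation was not tested. Among the 10 genes it moved the calls from 0 to 9 (8 higher, 1 lower). Among the 89 other genes of the pathway tested it moved them from 0 to 29 (25 higher, 4 lower). The shares of all genes tested were 21.0% higher and 6.46% lower. With median-ratio scaling the block gave 8 calls of the 10 (7 higher, 1 lower, against 17.4% and 10.4% of genes tested). In the pathway it then gave 31 of 89 (23 higher, 8 lower). With quantile normalization it gave 7 of the 10 (6 higher, 1 lower, against 14.4% and 14.6%) and 29 of 89 (21 higher, 8 lower). Distinct positions without the block gave 5 calls, all higher, and 22 of 83 in the pathway (16 higher, 6 lower). The shares of all genes were 15.2% and 5.11%. With the block they gave 8, all higher, and 41 of 83 (34 higher, 7 lower), against 29.9% and 13.9%. Without the block, testing the 14740 genes with a mean of at least 0.01 called 3 of the 10 (H2-K1, H2-D1 and Psmb9, against 3.16% higher). In the pathway it called 8 of 75, all higher. The other pseudocounts, filters, scalings and inputs on the values called 0.

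The median change of the 10 genes, 1.36, was 1.63 and 0.825 with pseudocounts of 0.001 and 0.02, 1.2 with median-ratio scaling, 0.858 with quantile normalization (both with and without the block), and 1.48 and 1.53 on distinct positions without and with the block. The scalings moved the median of all genes from 0.20 to 0.06 and -0.03. Psmb8 over Psmb5, a mean change of 1.37, was 1.81 and 0.768 with those pseudocounts, 0.936 with quantile normalization with and without the block, and 2.12 and 2.03 on distinct positions. Psmb9 over Psmb6 was 2.1 with a pseudocount of 0.02.

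With 1 library left out, its group holds 1 library, which is then assumed to vary like the other group, and unbalances the replicate numbers. The calls among the 10 genes ranged from 0 to 1 (Psmb9, without solvent replicate 1 or 2), those in the pathway from 0 to 4, and the median from 1.27 to 1.46. Psmb8 over Psmb5 ranged from 0.564 to 2.17, Psmb9 over Psmb6 from 1.62 to 3.37, and Psmb10 over Psmb7 from -1.28 to 0.103, reversed without solvent replicate 1. B2m ranged from -0.20 to 1.82, reversed without MS-275 replicate 2. For no other gene of the 10 did the direction change under any alternative run. The causes of these shifts were not tested. The fewest positions behind a gene, 3 for Psmb8, limit its precision.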
